A study of Arabidopsis thaliana with 43 samples.

Results

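Leaves of Arabidopsis thaliana (ecotype Col-0) seedlings that went straight from 22 °C to 45 °C were compared with leaves that were partway through a slow warming and stood at 38 °C. The sudden sample is the time point called T10: plants that had received no earlier heat treatment were held at 45 °C for 90 min on day 16 and harvested 9 h after lights on. The gradual sample is T2: plants on day 12 were harvested 3 h into a 6 h ramp, 3 h after lights on. These labels pick out 8 of the 43 libraries, or 4 of the 22 plates of the series, with 2 plates at each time point, 1 in each of 2 batches. Each heated time point was also set against its own unheated start at 22 °C. The start of T10 was taken to be T9, non-acclimated plants on day 16 sampled 7.5 h after lights on and labelled 22 °C. The protocol uses the name T9 a second time, for acclimated plants after recovery, and every comparison with T9 rests on the first reading. The start of T2 is T1, plants on day 12 sampled at lights on. All plants grew under 16 h of light per day, and each plate held about 80 seedlings whose leaves were pooled.

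The series follows seedlings through acclimating and non-acclimating heat treatments over 11 time points with RNA sequencing. T10 and T2 differ in temperature, in the speed and length of heating, in age by 4 days and in the hour of the light period by 6 h, and in these samples such differences cannot be told apart. T9 and T1 differ by the same 4 days and by 7.5 h, so levels at T9 and T1, or the log2 change of T9 against T1, are given beside results where the unheated starts differed too. The plate is the replicate, and the p-values measure the spread between plates. In leaf tissue, fewer cells of a type and less RNA per cell cannot be told apart.

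Plant cells answer heat through heat stress transcription factors, which bind heat shock elements in promoters and switch on chaperones of the cytosol, nucleus and organelles. A separate unfolded protein response serves the endoplasmic reticulum (ER), where the folding helpers BiP, calnexin, calreticulin and the protein disulfide isomerases receive newly made secretory proteins, and is driven by membrane-bound bZIP factors and by the RNA-splicing enzyme IRE1. DREB2A, a transcription factor of drought and heat responses, and the ubiquitin-proteasome system, which destroys damaged proteins, form further branches of the response to heat.

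Gene counts summed to 6656417 to 21304864 per library at T10 and 7453273 to 13387153 at T2. Records that named no gene made up 21.7 to 45.3% of the T10 libraries and 15.4 to 23.7% of the T2 libraries, and reads aligned to several places alone 10.2 to 44.2% at T10 and 3.82 to 22.2% at T2. The batches differed in the latter, with 10.2 to 16.2% at T10 and 3.82 to 4.21% at T2 in batch 1. In batch 2 they made up 32.3 to 44.2% at T10 and 15.8 to 22.2% at T2. Plastid and mitochondrial loci held 0.601 to 1.81% of gene counts at T10 and 0.0148 to 0.0702% at T2, and the part of these differences in the results was not tested. Markers of green leaf tissue were abundant: CAB1 and CAB2, light-harvesting proteins of photosystem II, RBCS1A, the small subunit of Rubisco, and RCA, Rubisco activase, each stood between 6126 and 31139 TMM-CPM in all 4 plates (CPM, or counts as a share of the library, scaled by the trimmed mean of M values, TMM). All levels are TMM-CPM per plate, with batch 1 given before batch 2. They are not scaled by transcript length and serve comparisons of 1 gene between samples.

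Of 20980 loci tested, 3988 differed between T10 and T2, which is 19.0% (edgeR quasi-likelihood test, Benjamini-Hochberg adjusted p under 0.05). At T10, 1961 of them were higher (9.35%) and 2027 lower (9.66%), and the median log2 change over all tested loci was -0.01. Scaling by library size alone moved that median to -0.31 and the split to 1003 higher and 2510 lower. The count was 1435 without the T10 batch 1 plate, 2416 without the T10 batch 2 plate, 1120 without the T2 batch 1 plate and 1742 without the T2 batch 2 plate. Against T9, 1725 loci changed at T10 (8.22%), with 789 higher (3.76%) and 936 lower (4.46%). Against T1, 577 changed at T2 (2.75%), with 421 higher (2.01%) and 156 lower (0.744%). With scaling by library size those splits became 300 and 4196 at T10, and 288 and 598 at T2. With 1 plate left out, the 1725 became 201 and 751 (T10 batch 1 and batch 2) and 75 and 371 (T9), and the 577 became 257 and 232 (T2) and 83 and 254 (T1). Without the batch term the 3988, 1725 and 577 became 2312, 600 and 339, and a fit to the plates compared alone gave 3168, 593 and 2257. DESeq2 gave 5213, 3431 and 1171. Between the starts, 402 loci differed (1.92%), and 156 and 160 without a T9 plate or 71 and 172 without a T1 plate. T10 against T2, T10 against T9 and T2 against T1 share plates with one another, so their values are given side by side and not as independent evidence.

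**Figure D1:**
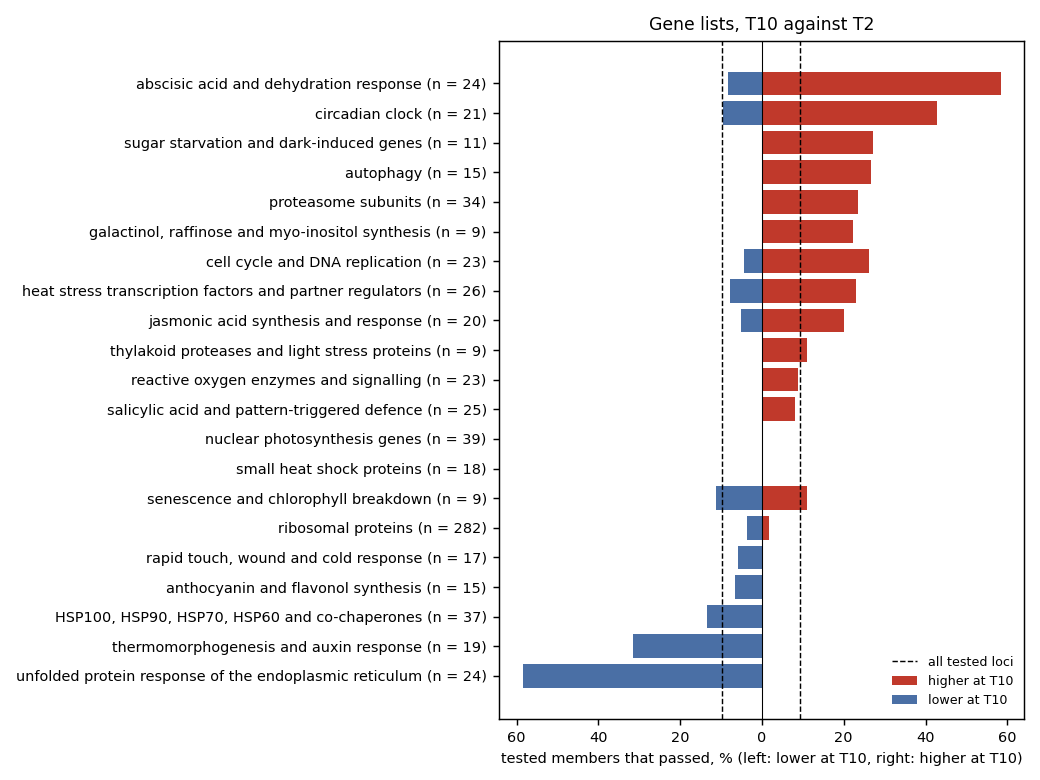
Share of the tested members of each gene list that passed in T10 against T2, in percent, with members higher at T10 drawn to the right and members lower at T10 to the left. Dashed lines mark the shares over all 20980 tested loci, 9.35% higher and 9.66% lower. The lists of the abscisic acid response, with 14 of 24 members higher, and of the unfolded protein response, with 14 of 24 lower, reach farthest from the dashed lines.

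The small heat shock proteins, which hold unfolding proteins in a soluble state, stood at high levels at both time points. Against their own starts, 16 of 18 tested members rose at T10, with a median log2 change of 8.61, and 16 of 18 rose at T2, with a median of 8.0. The shares of all loci that rose were 3.76% at T10 and 2.01% at T2. In T10 against T2, 0 of 18 passed the edgeR test, beside 19.0% of all loci (0 at an unadjusted p under 0.05, 0 with DESeq2 and 0 with limma on the authors' values). A fit to only the plates compared gave 1 higher and 1 lower. The median was -0.60, with single members from -1.78 to 1.67. With 1 plate left out, the members that rose numbered 13 and 16 without a T10 plate (batch 1 and batch 2) and 1 and 5 without a T9 plate for T10, and 13 and 14 without a T2 plate (batch 1 and batch 2) and 2 and 3 without a T1 plate for T2. HSP18.2, a cytosolic class I member, had 358 and 172 TMM-CPM at T10, against 135 and 47.1 TMM-CPM at T2, and its 2 T10 plates were above both T2 plates. Its log2 change was 1.56, with a 95% interval of -0.47 to 3.60. HSP21, the small heat shock protein of the chloroplast, had 171 and 38.2 TMM-CPM at T10, against 133 and 43.9 TMM-CPM at T2. The plates of HSP21 overlapped, with batch 1 above batch 2 at both time points, and the log2 change was 0.18, with a 95% interval of -1.93 to 2.29.

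HSP101, the disaggregase needed for acquired thermotolerance, had 5554 and 2689 TMM-CPM at T10, against 2302 and 2043 TMM-CPM at T2, with 5.86 and 7.54 TMM-CPM at T9 and 16.6 and 11.97 TMM-CPM at T1. Both T10 plates were the higher ones, and the log2 change of T10 against T2 was 0.95, with a 95% interval of -1.49 to 3.39, an interval that takes in 0. Over the list, 23 of 37 tested members rose at T10 against T9 and 27 of 37 at T2 against T1, which became 13 and 23 without a T10 plate (batch 1 and batch 2) and 1 and 6 without a T9 plate for T10, and 20 and 20 without a T2 plate (batch 1 and batch 2) and 4 and 9 without a T1 plate for T2. Of all loci, 3.76% rose at T10 against T9 and 2.01% at T2 against T1. In T10 against T2, 5 of 37 were lower and 0 higher in the edgeR test, beside 9.66% and 9.35% of all loci. The higher members numbered 3 at an unadjusted p under 0.05, 2 with DESeq2 and 0 with limma on the authors' values. The median was 0.05, turned to -0.28 under scaling by library size, and was 0.26 within batch 1 and -0.29 within batch 2. The genes of cytosolic HSP90, HSP81-2, HSP81-3 and Hsp81.4, are near-identical copies, and their split is uncertain.

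The 5 members that were lower at T10 included 4 chaperones of mitochondria and chloroplasts. Hsp89.1, the mitochondrial HSP90, had 105 and 77.6 TMM-CPM at T10, against 477 and 312 TMM-CPM at T2, a log2 change of -2.11 ± 0.39 (SE; adjusted p = 0.003). CR88, the chloroplast HSP90, had 562 and 385 TMM-CPM at T10, against 1667 and 1173 TMM-CPM at T2, a log2 change of -1.58 ± 0.38 (SE; adjusted p = 0.010). For both genes every T10 plate was below every T2 plate and above the starts, which lay at 50.4 and 56.4 TMM-CPM (T9) and 43.4 and 31.8 TMM-CPM (T1) for Hsp89.1. HSP60, the mitochondrial chaperonin, changed by -1.53 ± 0.49 (SE; adjusted p = 0.042), and cpHsc70-2, a chloroplast HSP70, by -1.12 ± 0.30 (SE; adjusted p = 0.018). The other member was Hop2, a co-chaperone that joins HSP70 to HSP90, with a log2 change of -0.86 ± 0.29 (SE; adjusted p = 0.049). Hsp89.1 passed with each of the 4 plates left out in turn. CR88 (log2 change -1.91 to -1.28) did not pass without the T10 batch 2 or T2 batch 1 plate. HSP60 (log2 change -2.12 to -1.09), cpHsc70-2 (log2 change -1.33 to -0.93) and Hop2 (log2 change -1.09 to -0.65) did not pass with any 1 of the 4 plates left out. The numbers higher and lower were 2 and 5 with DESeq2, 1 and 4 with only the plates compared and 0 and 3 with no batch term. Over the list, the lower members numbered 2 and 1 without a T10 plate (batch 1 and batch 2) and 1 and 2 without a T2 plate.

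APX2, the heat-inducible cytosolic ascorbate peroxidase, had 19.9 and 1.03 TMM-CPM at T10, against 181 and 35.4 TMM-CPM at T2. Both T10 plates were below both T2 plates, but the batches differed widely within each time point, and the log2 change of -3.56, with a 95% interval of -6.23 to -0.89, did not pass (adjusted p = 0.060). MBF1C, a transcriptional coactivator of heat tolerance, had 2110.1 and 915 TMM-CPM at T10, against 1117 and 966 TMM-CPM at T2, and its plates overlapped with a log2 change of 0.50, with a 95% interval of -1.56 to 2.55. Of 23 tested enzymes and regulators of reactive oxygen, 2 were higher at T10 in edgeR and 0 lower (3 lower at an unadjusted p under 0.05), shares no larger than the 9.35% and 9.66% of all loci. The numbers higher and lower were 2 and 1 with scaling by library size, 3 and 1 with DESeq2, 4 and 2 with only the plates compared, 0 and 0 with no batch term and 2 and 1 with limma on the authors' values. They were CAT1, a catalase, with 37.5 and 123 TMM-CPM at T10, against 12.9 and 22.9 TMM-CPM at T2 (log2 change 2.03 ± 0.41 (SE; adjusted p = 0.004)), and FSD2, a chloroplast iron superoxide dismutase (log2 change 1.02 ± 0.27 (SE; adjusted p = 0.017)). CAT1 passed with each of the 4 plates left out in turn. FSD2 (log2 change 0.83 to 1.24) did not pass with 1 plate left out, unless it was the T2 batch 2 plate.

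Among heat stress transcription factors and their partner regulators, 6 of 26 tested members (of 29 listed) were higher at T10 and 2 were lower, beside 9.35% and 9.66% of all loci. Among the members that passed and had counts at both time points, DREB2A differed most. It had 1079 and 529 TMM-CPM at T10, against 9.93 and 13.9 TMM-CPM at T2. Both T10 plates were far above both T2 plates, and the starts were low, at 4.24 and 3.05 TMM-CPM (T9) and 1.81 and 1.48 TMM-CPM (T1). The log2 change of T10 against T2 was 6.07 ± 0.87 (SE; adjusted p = 6.30e-04), a 67.3-fold higher level. DREB2A rose against T9 by a log2 change of 7.78 ± 0.93 (SE; adjusted p = 0.001), whereas its change at T2 against T1 was 2.85, with a 95% interval of 1.20 to 4.51 (adjusted p = 0.068). The 2 responses differed by 4.93 ± 1.07 (SE; adjusted p = 0.044) on the log2 scale. At the end of the same ramp, after 90 min at 45 °C (T4), DREB2A stood at 621 and 472 TMM-CPM, values that were not tested against T10. DREB2A passed with each of the 4 plates left out in turn. DREB2A (log2 difference 4.29 to 5.41) did not pass in the difference of responses with any 1 of the 8 plates left out.

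HSFA7A, a heat-induced class A factor, had 446 and 353 TMM-CPM at T10, against 65.6 and 70.9 TMM-CPM at T2, with both T10 plates above both T2 plates. Its log2 change was 2.56 ± 0.65 (SE; adjusted p = 0.015), and its responses at T10 and T2 differed by 4.22 ± 0.95 (SE; adjusted p = 0.0497). HSFA2, the factor that prolongs acquired thermotolerance, had 1899.5 and 1116 TMM-CPM at T10, against 598 and 743 TMM-CPM at T2, with the T10 plates above the T2 plates and a log2 change of 1.24, with a 95% interval of -1.42 to 3.89. HSFB4, a class B factor known from root stem cell divisions, was lower at T10, with 3.69 and 4.10 TMM-CPM at T10, against 15.8 and 19.7 TMM-CPM at T2 and a log2 change of -2.19 ± 0.29 (SE; adjusted p = 3.97e-04). The other lower member was HSFA1D, a factor active before stress, with a log2 change of -1.0. HSFA8 had 7.79 and 2.77 TMM-CPM at T10, against 0.993 and 0.608 TMM-CPM at T2 (log2 change 2.67 ± 0.58 (SE; adjusted p = 0.007)), but its T9 level was already 9.58 and 9.92 TMM-CPM. HSFA6B had 33 counts over the T10 plates and 0 over the T2 plates, which is at least 11.2-fold higher when T2 is set to the limit of 3 counts over the group. The fit gave HSFA6B a log2 change of 6.83, above that of DREB2A, a value that rests on the 0 counts at T2. Its T9 plates had 0.671 and 0.135 TMM-CPM and its T1 plates 0.0266 and 0 TMM-CPM. The remaining higher members were DREB2B, a relative of DREB2A, and HSF3, a class A1 factor, with log2 changes of 2.36 and 1.04. DREB2B changed by 2.70 in T9 against T1, without passing. The call of HSFA6B was lost without the T10 batch 1 or T2 batch 1 plate. HSFB4 passed with each of the 4 plates left out in turn. HSFA7A (log2 change 2.26 to 2.82), HSFA8 (log2 change 1.94 to 3.17) and DREB2B (log2 change 1.75 to 2.81) did not pass with 1 plate left out, unless it was the T10 batch 2 plate. HSFA1D (log2 change -1.16 to -0.82) did not pass with any 1 of the 4 plates left out. HSF3 (log2 change 0.70 to 1.32) did not pass with 1 plate left out, unless it was the T10 batch 1 plate. HSFA7A (log2 difference 3.56 to 5.31) did not pass in the difference of responses with any 1 of the 8 plates left out. Over the list, the higher members numbered 2 and 5 without a T10 plate (batch 1 and batch 2) and 1 and 2 without a T2 plate.

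The 250 bases before the start of DREB2A and HSFA7A are shown because both genes passed in the difference of responses and both windows hold a heat shock element of 3 units. The sequences are those of RefSeq on TAIR10.1, read 5′ to 3′ on the strand of the gene, and capitals mark the letters GAANNTTCNNGAA or TTCNNGAANNTTC found on either strand. The window of DREB2A is chr5:1601955-1602204, plus strand, and that of HSFA7A is chr3:19264891-19265140, plus strand.
DREB2A: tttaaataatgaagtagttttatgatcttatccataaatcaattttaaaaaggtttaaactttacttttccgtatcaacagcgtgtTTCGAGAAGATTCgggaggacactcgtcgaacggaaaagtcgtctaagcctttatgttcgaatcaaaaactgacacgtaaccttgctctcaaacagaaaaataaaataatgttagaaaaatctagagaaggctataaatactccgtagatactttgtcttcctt
HSFA7A: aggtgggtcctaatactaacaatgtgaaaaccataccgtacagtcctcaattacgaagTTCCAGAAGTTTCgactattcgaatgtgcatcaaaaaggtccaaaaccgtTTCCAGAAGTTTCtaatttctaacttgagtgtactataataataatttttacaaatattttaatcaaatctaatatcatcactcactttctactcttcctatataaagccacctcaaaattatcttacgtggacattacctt

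This element was found in 91 of 20809 (0.437%) of the windows of all tested loci, in 4 of 26 (15.4%) of the list of heat stress factors, in 17 of 715 (2.38%) of loci that rose at T10 against T9 and in 14 of 421 (3.33%) of loci that rose at T2 against T1. It occurred among the risers of either exposure. A match describes letters in the window and not a bound site.

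Among genes of the unfolded protein response, 14 of 24 tested members were lower at T10 than at T2, against 9.66% of all loci. None was higher in edgeR, at an unadjusted p under 0.05, with DESeq2 or with limma on the authors' values, and the median was -1.68 beside -0.01 over all loci. Against the starts, 1 rose and 3 fell at T10, with a median of -0.24, whereas 16 rose and 0 fell at T2, with a median of 1.54. Over all loci, 3.76% rose and 4.46% fell at T10, and 2.01% rose and 0.744% fell at T2. The difference of the 2 responses passed for 11 members, each lower at T10, beside 0.615% of all loci. With 1 plate left out, the lower members of T10 against T2 numbered 13 and 11 without a T10 plate (batch 1 and batch 2) and 12 and 13 without a T2 plate. The members that rose at T2 numbered 13 and 11 without a T2 plate (batch 1 and batch 2) and 8 and 11 without a T1 plate, and the members that fell at T10 against T9 numbered 1 and 1 without a T10 plate (batch 1 and batch 2) and 1 and 1 without a T9 plate. The 11 members whose responses differed became 3 and 4 without a T10 plate (batch 1 and batch 2), 5 and 4 without a T2 plate, 5 and 6 without a T9 plate and 2 and 3 without a T1 plate.

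CRT1a, a calreticulin that binds calcium and folds glycoproteins in the lumen, had 29.6 and 33.3 TMM-CPM at T10, against 371 and 467 TMM-CPM at T2. The starts lay between, at 125 and 159 TMM-CPM (T9) and 107 and 105 TMM-CPM (T1), so both T10 plates stood below every start and both T2 plates above every start. CRT1a fell by 2.16 ± 0.29 (SE, adjusted p = 0.002) on the log2 scale at T10 against T9 and rose by 1.97 ± 0.29 (SE, adjusted p = 0.002) at T2 against T1. In T10 against T2 its log2 change was -3.73 ± 0.31 (SE; adjusted p = 3.03e-05), a 13.3-fold lower level, and the difference of responses was -4.13 ± 0.41 (SE; adjusted p = 3.08e-04). At the end of the ramp, after 90 min at 45 °C (T4), CRT1a stood at 333 and 514 TMM-CPM, given without a test. CRT1a passed in the difference of responses with each of the 8 plates left out in turn.

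ATERDJ3B, a DnaJ co-chaperone that works with BiP, had 14.9 and 19.3 TMM-CPM at T10, against 119 and 157 TMM-CPM at T2, with 30.9 and 37.9 TMM-CPM at T9 and 23.3 and 26.7 TMM-CPM at T1. It too stood below the starts at T10 and above them at T2, and the difference of responses was -3.47 ± 0.31 (SE; adjusted p = 1.64e-04). PDIL1-2, a protein disulfide isomerase, moved in opposite directions as well, with 19.96 and 24.2 TMM-CPM at T10, against 74.8 and 135 TMM-CPM at T2 and a difference of responses of -2.55 ± 0.43 (SE; adjusted p = 0.018). CNX1, the membrane-bound lectin chaperone calnexin, had 103 and 131 TMM-CPM at T10, against 533 and 667 TMM-CPM at T2, with 124 and 145 TMM-CPM at T9. Its T10 plates lay within the range of the T9 and T1 plates and its T2 plates above it, with a log2 change of T10 against T2 of -2.36 ± 0.30 (SE; adjusted p = 3.29e-04). ATERDJ3B passed in the difference of responses with each of the 8 plates left out in turn. PDIL1-2 (log2 difference -2.79 to -2.33) did not pass in the difference of responses with 1 plate left out, unless it was the T9 batch 2 plate. ATERDJ3B (log2 change -1.05 to -0.98) and PDIL1-2 (log2 change -1.52 to -1.06) did not pass in T10 against T9 with any 1 of the 4 plates left out. ATERDJ3B passed in T2 against T1 with each of the 4 plates left out in turn. PDIL1-2 (log2 change 1.06 to 1.52) did not pass in T2 against T1 with any 1 of the 4 plates left out.

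PDIL2-2, another disulfide isomerase, had 7.66 and 4.92 TMM-CPM at T10, against 54.2 and 70.96 TMM-CPM at T2, a log2 change of -3.31 ± 0.43 (SE; adjusted p = 3.83e-04), and P58IPK, a DnaJ protein of the lumen, had 11.8 and 8.87 TMM-CPM at T10, against 59.2 and 63.8 TMM-CPM at T2, a log2 change of -2.57 ± 0.31 (SE; adjusted p = 2.47e-04). Both were lower in every T10 plate than in any T2 plate. The other lower members were BIP1 and BIP2, lumenal HSP70s and near-identical copies whose split is uncertain, SHD, the lumenal HSP90, SDF2, CRT1b, UNE5, NAC103 and the membrane-bound factor BZIP17, with log2 changes from -2.43 (BIP2) to -1.12 (BZIP17). Members that did not pass included the sensors IRE1A and IRE1-1, the factors BZIP28 and BZIP60, and BIP3, with log2 changes from -1.12 (BIP3) to -0.61 (IRE1-1). In the edgeR test a single member, ATERDJ3A, rose in both exposures. At T10 against T9, 2 members were higher with DESeq2 and 1 with limma on the authors' values. At an unadjusted p under 0.05 in the edgeR fit, 3 were higher there. ATERDJ3A had 299 and 82.02 TMM-CPM at T10, against 169 and 149 TMM-CPM at T2, with 2.32 and 2.54 TMM-CPM at T9 and 1.89 and 0.914 TMM-CPM at T1. Its log2 change of T10 against T2 was 0.12, with a 95% interval of -1.70 to 1.95. ATERDJ3A and the members given by name without plate values were chosen after their values were seen. CRT1a, ATERDJ3B, CNX1, PDIL2-2, P58IPK and PDIL1-2 passed with each of the 4 plates left out in turn.

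**Figure D2:**
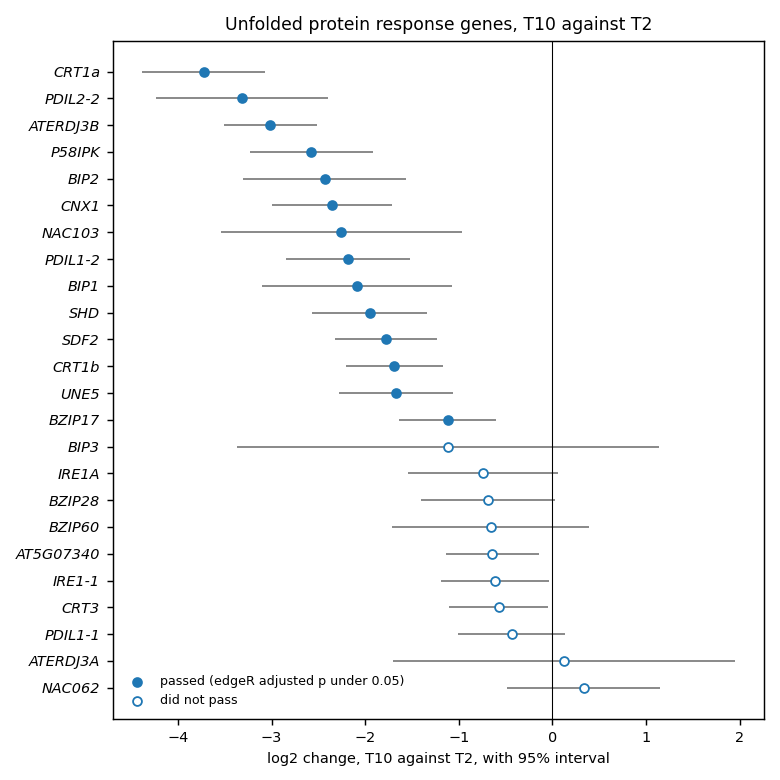
Log2 change of T10 against T2 for the 24 tested genes of the unfolded protein response, with 95% intervals as grey lines, filled points for genes that passed and open points for those that did not. The 14 filled points lie at or left of -1.12, and no gene passed to the right of 0.

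The promoters of CRT1a and SHD are shown because these lower members hold both elements known from genes of the unfolded protein response. SHD was chosen for this after its values were seen, and had 186 and 193 TMM-CPM at T10, against 695 and 779 TMM-CPM at T2. Capitals mark the ER stress element, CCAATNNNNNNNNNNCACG, and the core of the unfolded protein response element, TGACGTGG, on either strand. The RefSeq windows on TAIR10.1, read 5′ to 3′ on the strand of the gene, are chr1:21092710-21092959, minus strand, for CRT1a, and chr4:12556059-12556308, minus strand, for SHD.
CRT1a: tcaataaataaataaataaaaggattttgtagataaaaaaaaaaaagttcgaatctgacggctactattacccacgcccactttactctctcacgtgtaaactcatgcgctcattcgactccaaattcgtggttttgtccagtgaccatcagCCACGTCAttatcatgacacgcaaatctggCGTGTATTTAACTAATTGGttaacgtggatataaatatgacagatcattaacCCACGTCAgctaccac
SHD: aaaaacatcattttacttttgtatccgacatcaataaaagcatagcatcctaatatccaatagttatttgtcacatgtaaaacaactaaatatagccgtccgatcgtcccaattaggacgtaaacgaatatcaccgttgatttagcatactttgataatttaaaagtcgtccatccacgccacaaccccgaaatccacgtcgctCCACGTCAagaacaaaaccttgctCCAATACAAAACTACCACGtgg

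The ER stress element occurred in 179 of 20809 (0.860%) of all windows, in 6 of 24 (25.00%) of the list and in 4 of 14 (28.6%) of the members lower at T10. Among the 129 loci whose response was lower at T10 than at T2, 8 of 129 (6.20%) held it. The core TGACGTGG was found in 321 of 20809 (1.54%) of all windows and in 3 of 24 (12.5%) of the list.

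**Figure D3:**
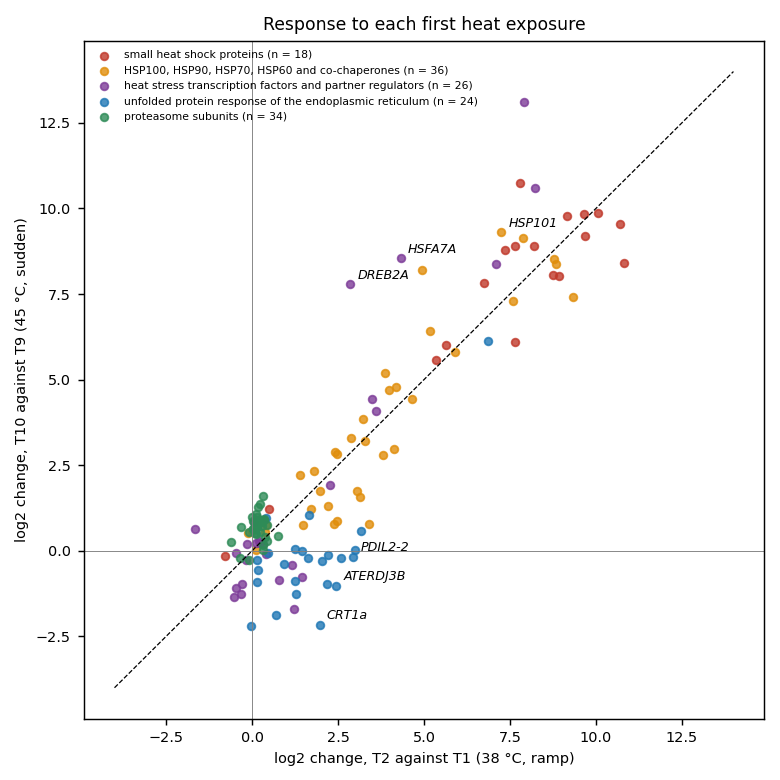
Log2 change of T10 against T9 (vertical axis) and of T2 against T1 (horizontal axis) for the tested members of 5 gene lists, 1 point per gene, with equal responses on the dashed line; AT1G56410, without a count in these plates, is left out. Small heat shock proteins and cytosolic chaperones spread along the line, DREB2A (7.78 and 2.85) lies above it, and CRT1a (-2.16 and 1.97) and other genes of the unfolded protein response lie below it.

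Of 34 tested loci with proteasome in their product name, 8 were higher at T10 than at T2 and 0 lower in edgeR, beside 9.35% and 9.66% of all loci, and the calls moved with the processing. The numbers higher and lower were 3 and 1 with scaling by library size, 14 and 0 with DESeq2, 1 and 0 with only the plates compared and 5 and 1 with limma on the authors' values, and the median of 0.57 turned to 0.26 with scaling by library size. Against the starts, 7 rose at T10 with a median of 0.72, and 0 rose at T2 in the edgeR test with a median of 0.15 (for T2, 1 at an unadjusted p under 0.05, 0 with DESeq2 and 0 with limma on the authors' values). Over all loci, 3.76% rose at T10 and 2.01% at T2. The 7 became 16 with DESeq2 and 0 with limma on the authors' values. RPN1A, a scaffold of the regulatory particle, had 293 and 251 TMM-CPM at T10, against 115 and 103 TMM-CPM at T2, with both T10 plates above all plates of T2 and of the starts, and a log2 change of 1.32 ± 0.24 (SE; adjusted p = 0.003). PBG1, a β subunit of the core particle, had 249 and 145 TMM-CPM at T10, against 58.9 and 69.7 TMM-CPM at T2, a log2 change of 1.60 ± 0.39 (SE; adjusted p = 0.013). The difference of responses passed for 0 of the 34 subunits in the edgeR test, with 9 at an unadjusted p under 0.05, 1 with DESeq2 and 0 with limma on the authors' values, so unequal responses were not shown. RPN1A passed with each of the 4 plates left out in turn. PBG1 (log2 change 1.19 to 1.93) did not pass with 1 plate left out, unless it was the T10 batch 2 plate. The 7 that rose against T9 became 0 and 5 without a T10 plate (batch 1 and batch 2) and 0 and 0 without a T9 plate. The 8 higher at T10 than at T2 became 1 and 5 without a T10 plate (batch 1 and batch 2) and 1 and 2 without a T2 plate.

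In the autophagy list, 4 of 15 tested genes were higher at T10 (9.35% of all loci) and 0 lower in edgeR. The numbers higher and lower were 1 and 0 with scaling by library size, 1 and 0 with only the plates compared and 2 and 0 with no batch term, and the median of 0.30 became 0.0057 with scaling by library size. NBR1, a receptor for ubiquitinated cargo, had 232 and 186 TMM-CPM at T10, against 94.5 and 114 TMM-CPM at T2, a log2 change of 1.01 ± 0.25 (SE; adjusted p = 0.013), but stood at 177 and 173 TMM-CPM at T9, so its T9 plates were also above its T2 plates. ATI1, a receptor that interacts with ATG8, had 92.8 and 51.4 TMM-CPM at T10, against 22.5 and 25.1 TMM-CPM at T2, a log2 change of 1.57 ± 0.34 (SE; adjusted p = 0.006). ATG3, the conjugating enzyme of ATG8, and ATG8G completed the 4, with log2 changes of 0.89 and 0.91. NBR1 (log2 change 0.78 to 1.21) did not pass with 1 plate left out, unless it was the T10 batch 2 plate. ATI1 (log2 change 1.14 to 1.93) did not pass without the T10 batch 1 or T2 batch 1 plate. ATG3 (log2 change 0.83 to 0.95) and ATG8G (log2 change 0.72 to 1.07) did not pass with any 1 of the 4 plates left out. The higher genes numbered 0 and 2 without a T10 plate (batch 1 and batch 2) and 0 and 1 without a T2 plate.

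Of 23 tested cell cycle and replication genes, 6 were higher at T10 and 1 lower, beside 9.35% and 9.66% of all loci. Scaling by library size gave 3 in the higher and 1 in the lower direction and a median of 0.089 in place of 0.39. RNR1, the large subunit of ribonucleotide reductase, had 91.3 and 110.3 TMM-CPM at T10, against 33.3 and 26.9 TMM-CPM at T2, a log2 change of 1.72 ± 0.29 (SE; adjusted p = 0.002). PRL, a subunit of the MCM helicase, had 34.1 and 38.8 TMM-CPM at T10, against 16.4 and 13.7 TMM-CPM at T2, a log2 change of 1.27 ± 0.24 (SE; adjusted p = 0.003). For both, the starts lay between the 2 heated time points, with RNR1 at 58.6 and 66.4 TMM-CPM (T9) and 66.2 and 47.95 TMM-CPM (T1). CYCB1;1, a mitotic cyclin, changed by 2.04 ± 0.45 (SE; adjusted p = 0.007). CYCD3;1, a G1 cyclin, was lower at T10, with 17.4 and 23.02 TMM-CPM at T10, against 46.7 and 52.1 TMM-CPM at T2 and a log2 change of -1.30 ± 0.26 (SE; adjusted p = 0.005). RNR1 and PRL passed with each of the 4 plates left out in turn. CYCB1;1 (log2 change 1.79 to 2.33) did not pass without the T10 batch 1 or T2 batch 2 plate. CYCD3;1 (log2 change -1.46 to -1.15) did not pass without the T10 batch 1 plate. The higher genes numbered 2 and 5 without a T10 plate (batch 1 and batch 2) and 4 and 2 without a T2 plate.

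Of 11 tested genes known from carbon shortage and darkness, 3 were higher at T10 (9.35% of all loci) and 0 lower in edgeR. Without the batch term 1 was higher. GDH1, a glutamate dehydrogenase, had 37.96 and 69.6 TMM-CPM at T10, against 12.2 and 18.8 TMM-CPM at T2, with 19.9 and 48.8 TMM-CPM at T9 and 38.8 and 43.9 TMM-CPM at T1, and a log2 change of 1.77 ± 0.28 (SE; adjusted p = 0.001). The T2 plates were the lowest of the 4 time points, and GDH1 fell at T2 against T1 by 1.46 on the log2 scale (adjusted p = 0.009). The difference of its responses was 2.15 ± 0.38 (SE; adjusted p = 0.023). GDH1 (log2 change -1.69 to -1.19) did not pass in T2 against T1 with 1 plate left out, unless it was the T1 batch 2 plate. GDH1 (log2 difference 1.82 to 2.56) did not pass in the difference of responses with 1 plate left out, unless it was the T9 batch 2 or T1 batch 2 plate. GDH2 changed by 1.67 ± 0.35 (SE; adjusted p = 0.006), and ASN1, the dark-induced asparagine synthetase, had 5.33 and 55.5 TMM-CPM at T10, against 0.627 and 7.21 TMM-CPM at T2, a log2 change of 2.95 ± 0.82 (SE; adjusted p = 0.023). GDH1 passed with each of the 4 plates left out in turn. GDH2 (log2 change 1.36 to 1.93) did not pass without the T10 batch 1 or T2 batch 2 plate. ASN1 (log2 change 2.77 to 3.25) did not pass with any 1 of the 4 plates left out. The higher genes numbered 1 and 2 without a T10 plate (batch 1 and batch 2) and 2 and 1 without a T2 plate.

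Some genes of warmth-induced growth and auxin were lower at T10. Of 19 tested members, 6 were lower (9.66% of all loci) and 0 higher in edgeR, with 10 lower in a fit to the plates compared alone and 2 lower without the batch term, with a median of -1.42. YUC8, an enzyme of auxin synthesis that responds to warmth, had 0.0456 and 0.154 TMM-CPM at T10, against 5.38 and 3.56 TMM-CPM at T2, with 0.763 and 1.35 TMM-CPM at T9 and 2.39 and 1.78 TMM-CPM at T1. The T10 plates were the lowest of the 4 time points, the log2 change of T10 against T2 was -5.53 ± 0.90 (SE; adjusted p = 0.001), and YUC8 fell at T10 against T9 by 3.36 on the log2 scale (adjusted p = 0.038). YUC9 had 0.365 and 0.103 TMM-CPM at T10, against 5.54 and 3.43 TMM-CPM at T2, a log2 change of -4.20 ± 0.89 (SE; adjusted p = 0.006), but its T9 level of 0.305 and 0.297 TMM-CPM was as low as at T10. YUC8 (log2 change -4.16 to -2.89) did not pass in T10 against T9 with any 1 of the 4 plates left out.

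SAUR19, SAUR22 and SAUR23, small auxin-induced growth genes, had log2 changes of -2.51, -2.43 and -3.07, and SAUR20 had 1.003 and 2.46 TMM-CPM at T10, against 10.98 and 10.7 TMM-CPM at T2 with a difference of responses of -3.63 ± 0.70 (SE; adjusted p = 0.027). The SAUR genes stand close together and are alike in sequence, so counts among them may be split uncertainly. XTH15, a cell wall enzyme, was lower, with a log2 change of -2.83. PIF4, the factor that turns on YUC8 in warmth, had 104 and 179 TMM-CPM at T10, against 107 and 98.9 TMM-CPM at T2, and did not pass (log2 change 0.38, with a 95% interval of -0.36 to 1.13), although it rose at T2 against T1. PIF4 had 81.3 and 121 TMM-CPM at T9 and 9.12 and 19.5 TMM-CPM at T1, so the unheated T9 level was also above T1 (log2 change 2.86 ± 0.37 (SE; adjusted p = 9.33e-04)). PIF4 passed in T9 against T1 with each of the 4 plates left out in turn. PIF4 was singled out after its values were seen. YUC8 passed with each of the 4 plates left out in turn. YUC9 (log2 change -5.49 to -3.53) did not pass without the T10 batch 2 or T2 batch 1 plate. SAUR19 (log2 change -3.11 to -1.73) and XTH15 (log2 change -3.70 to -2.13) did not pass with any 1 of the 4 plates left out. SAUR22 (log2 change -4.02 to -1.59) did not pass with 1 plate left out, unless it was the T10 batch 2 plate. SAUR23 (log2 change -4.01 to -2.50) did not pass without the T10 batch 1 or T2 batch 1 plate. SAUR20 (log2 change -3.41 to -2.16) did not pass without the T10 batch 1 plate. SAUR20 (log2 difference -4.35 to -2.90) did not pass in the difference of responses with 1 plate left out, unless it was the T10 batch 2 or T9 batch 2 plate. The lower genes numbered 2 and 3 without a T10 plate (batch 1 and batch 2) and 1 and 3 without a T2 plate.

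Dehydration and cold response genes held the highest share of higher members among the lists. In the abscisic acid list 14 of 24 tested genes were higher at T10, beside 9.35% of all loci. The 2 lower ones were a share below the 9.66% of all loci, and the median of the list was 1.71. Between the unheated starts, 11 of the 24 were higher at T9 than at T1, beside 1.6% of all loci, whereas 1 rose at T10 against T9 in the edgeR test (10 at an unadjusted p under 0.05, 5 with DESeq2 and 0 with limma on the authors' values) and 0 at T2 against T1 (11 at an unadjusted p under 0.05, 3 with DESeq2 and 0 with limma on the authors' values). The shares of all loci that rose were 3.76% at T10 against T9 and 2.01% at T2 against T1. The 11 became 7 and 9 without a T9 plate (batch 1 and batch 2) and 2 and 7 without a T1 plate. LTI78, a desiccation-induced protein, had 916 and 698 TMM-CPM at T10, against 8.84 and 7.34 TMM-CPM at T2, with 478 and 210.3 TMM-CPM at T9 and 9.36 and 8.57 TMM-CPM at T1. The T9 plates, though below the T10 plates, were more like them than like T2 and T1. The log2 change was 6.64 ± 0.68 (SE; adjusted p = 8.48e-05) for T10 against T2, and 1.24, with a 95% interval of 0.09 to 2.38, for T10 against T9.

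COR15A and COR15B, which protect chloroplast membranes on freezing, changed by 5.83 and 7.24 in T10 against T2, and by 0.67 and 0.35 in T10 against T9. Between the unheated starts, T9 against T1, they changed by 6.82 and 6.79. The dehydrin AT5G66400 had 318 and 69.6 TMM-CPM at T10, against 12.1 and 4.52 TMM-CPM at T2, and was the 1 member that also rose against T9, with a log2 change of 2.14 ± 0.63 (SE; adjusted p = 0.049). AT5G66400 (log2 change 1.49 to 2.60) did not pass in T10 against T9 with any 1 of the 4 plates left out. KIN1 and KIN2, a near-identical pair like COR15A and COR15B, changed by 3.46 and 4.60, and by 4.04 and 2.59 in T9 against T1. AT5G66400 changed by 4.39 in T9 against T1. The 2 lower members were HAB1, a phosphatase of the signalling core, and CYP707A3, which degrades abscisic acid, with log2 changes of -1.57 and -2.47. LTI78, COR15A, COR15B, AT5G66400, KIN1 and KIN2 passed with each of the 4 plates left out in turn. HAB1 (log2 change -2.05 to -1.21) did not pass with any 1 of the 4 plates left out. CYP707A3 (log2 change -3.28 to -1.498) did not pass with 1 plate left out, unless it was the T2 batch 2 plate. The higher genes numbered 11 and 14 without a T10 plate (batch 1 and batch 2) and 9 and 9 without a T2 plate. In the galactinol list 2 of 9 were higher and 0 lower in edgeR, beside 9.35% and 9.66% of all loci. The numbers higher and lower were 1 and 0 with scaling by library size, 3 and 1 with only the plates compared and 1 and 0 with limma on the authors' values. The 2 higher members were AT5G40390, of the raffinose synthase family (log2 change 1.87), and GolS3, a galactinol synthase of the cold response. GolS3 had 17.4 and 36.03 TMM-CPM at T10, against 0.105 and 0.304 TMM-CPM at T2, a log2 change of 7.0 ± 1.04 (SE; adjusted p = 8.13e-04), and the starts already differed, with 5.13 and 7.11 TMM-CPM at T9 and 0.106 and 0.305 TMM-CPM at T1 (log2 change 5.01 ± 0.97 (SE; adjusted p = 0.014)). GolS3 (log2 change 4.64 to 5.34) did not pass in T9 against T1 with 1 plate left out, unless it was the T9 batch 2 plate. The heat-induced GolS1 had 693 and 107 TMM-CPM at T10, against 1585 and 849.7 TMM-CPM at T2, and did not pass (log2 change -1.71, with a 95% interval of -4.39 to 0.97). GolS3 passed with each of the 4 plates left out in turn. AT5G40390 (log2 change 1.33 to 2.28) did not pass with 1 plate left out, unless it was the T10 batch 2 plate.

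The circadian clock list was likewise apart in its higher members, with 9 of 21 tested genes higher at T10 beside 9.35% of all loci. Its 2 lower genes, LHY and RVE8, were a share near the 9.66% of all loci. Between the starts, 6 of the 21 were higher at T9 and 3 lower, beside 1.6% and 0.315% of all loci. At T10 against T9, 0 changed in the edgeR test, beside 8.22% of all loci (2 lower at an unadjusted p under 0.05, 1 with DESeq2 and 0 with limma on the authors' values). With 1 plate left out, the 6 became 6 and 5 without a T9 plate (batch 1 and batch 2) and 5 and 7 without a T1 plate. PRR5, an afternoon-phased repressor, had 11.7 and 28.4 TMM-CPM at T10, against 0.471 and 0.348 TMM-CPM at T2, with 55.3 and 63.2 TMM-CPM at T9 and 0.505 and 0.740 TMM-CPM at T1, and a log2 change of 5.56 ± 0.74 (SE; adjusted p = 4.14e-04). LHY, the morning factor, had 5.70 and 5.07 TMM-CPM at T10, against 73.6 and 63.9 TMM-CPM at T2, a log2 change of -3.68 ± 0.64 (SE; adjusted p = 0.002), and the T1 plates at 445 and 683 TMM-CPM were the highest. TOC1, an evening-phased repressor, had 52.7 and 43.1 TMM-CPM at T10, against 9.83 and 10.6 TMM-CPM at T2, a log2 change of 2.21 ± 0.40 (SE; adjusted p = 0.002). FKF1, a blue-light receptor of day length timing, had 358 counts over the T10 plates and 0 over the T2 plates, at least 121-fold higher with T2 set to 3 counts over the group. The starts differed for FKF1 too, with 32.1 and 25.2 TMM-CPM at T9 and 0.106 and 0.0435 TMM-CPM at T1.

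GI, which acts with FKF1, had 58.97 and 115 TMM-CPM at T10, against 14.4 and 21.8 TMM-CPM at T2, with 74.4 and 76.02 TMM-CPM at T9 and 0.877 and 1.61 TMM-CPM at T1, and a log2 change of 2.23 ± 0.52 (SE; adjusted p = 0.009) in T10 against T2. ELF4, of the evening complex, changed by 5.58 in T9 against T1 and, in T10 against T2, by 6.51 ± 0.64 (SE; adjusted p = 6.10e-05). RVE8, a morning-phased activator, had a log2 change of -1.73, and of -3.21 in T9 against T1. PRR5, LHY, TOC1 and ELF4 passed with each of the 4 plates left out in turn. GI (log2 change 2.0 to 2.44) did not pass without the T2 batch 1 or T2 batch 2 plate. RVE8 (log2 change -2.19 to -1.38) did not pass with any 1 of the 4 plates left out. The higher genes numbered 8 and 8 without a T10 plate (batch 1 and batch 2) and 5 and 6 without a T2 plate. Clock genes cycle with the hour of the day, which differs by 6 h between T10 and T2.

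**Figure D4:**
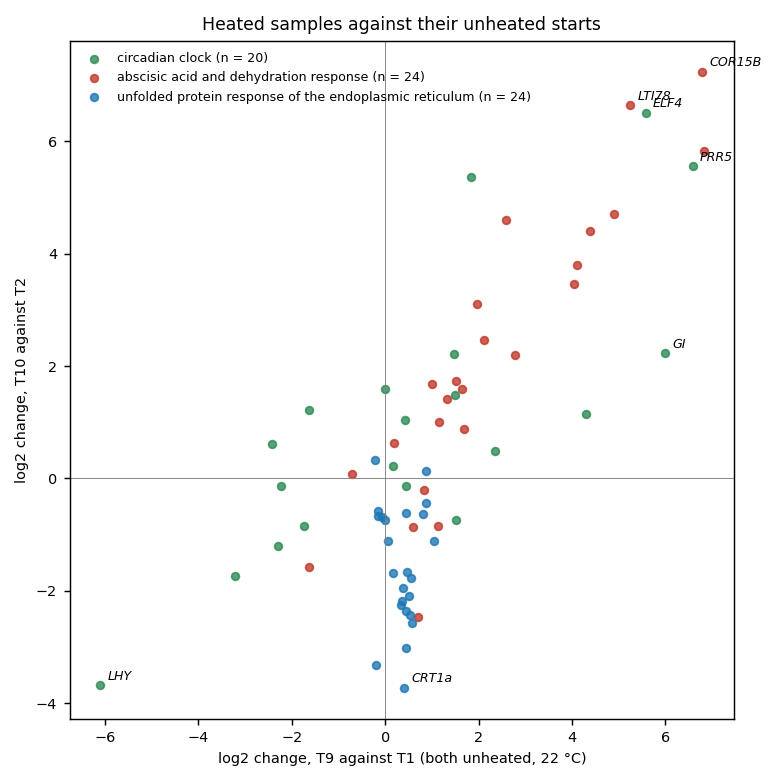
Log2 change of T10 against T2 (vertical axis) and of T9 against T1, both unheated (horizontal axis), for 3 gene lists, 1 point per gene; FKF1, without a count at T2, is left out. Clock and abscisic acid genes such as LHY (-3.68 and -6.11) and LTI78 (6.64 and 5.25) lie along a diagonal, while the unfolded protein response genes are spread downward near 0 on the horizontal axis, with CRT1a at -3.73 and 0.40.

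The windows of LTI78, PRR5 and TOC1 are shown because they hold the elements known from dehydration and from clock genes. Capitals mark the dehydration-responsive core, ACCGAC or GCCGAC, in LTI78 and the evening element, AAAATATCT, in PRR5 and TOC1, on either strand. The RefSeq windows on TAIR10.1 are chr5:21240467-21240716, plus strand, for LTI78, chr5:8358547-8358796, minus strand, for PRR5, and chr5:24674713-24674962, plus strand, for TOC1.
LTI78: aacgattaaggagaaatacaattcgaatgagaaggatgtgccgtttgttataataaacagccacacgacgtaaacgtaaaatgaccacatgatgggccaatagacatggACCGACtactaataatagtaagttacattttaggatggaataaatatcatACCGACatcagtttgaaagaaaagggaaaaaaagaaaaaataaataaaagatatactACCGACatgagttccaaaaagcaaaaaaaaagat
PRR5: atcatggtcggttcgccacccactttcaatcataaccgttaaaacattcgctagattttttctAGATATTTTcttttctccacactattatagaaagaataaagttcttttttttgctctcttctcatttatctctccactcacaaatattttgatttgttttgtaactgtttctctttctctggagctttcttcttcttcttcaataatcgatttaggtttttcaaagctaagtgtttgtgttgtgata
TOC1: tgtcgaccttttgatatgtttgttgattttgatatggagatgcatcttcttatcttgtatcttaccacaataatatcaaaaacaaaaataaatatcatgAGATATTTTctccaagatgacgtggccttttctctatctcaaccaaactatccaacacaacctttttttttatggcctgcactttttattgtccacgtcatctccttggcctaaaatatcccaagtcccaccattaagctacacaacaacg

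The evening element occurred in 533 of 20809 (2.56%) of all windows, in 117 of 1855 (6.31%) of loci higher at T10 than at T2, in 28 of 2025 (1.38%) of those lower and in 5 of 21 (23.8%) of the clock list. Among loci that rose at T10 against T9 it was found in 21 of 715 (2.94%). The dehydration-responsive core was found in 1653 of 20809 (7.94%) of all windows, in 183 of 1855 (9.87%) of loci higher at T10 and in 5 of 24 (20.8%) of the abscisic acid list.

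**Figure D5:**
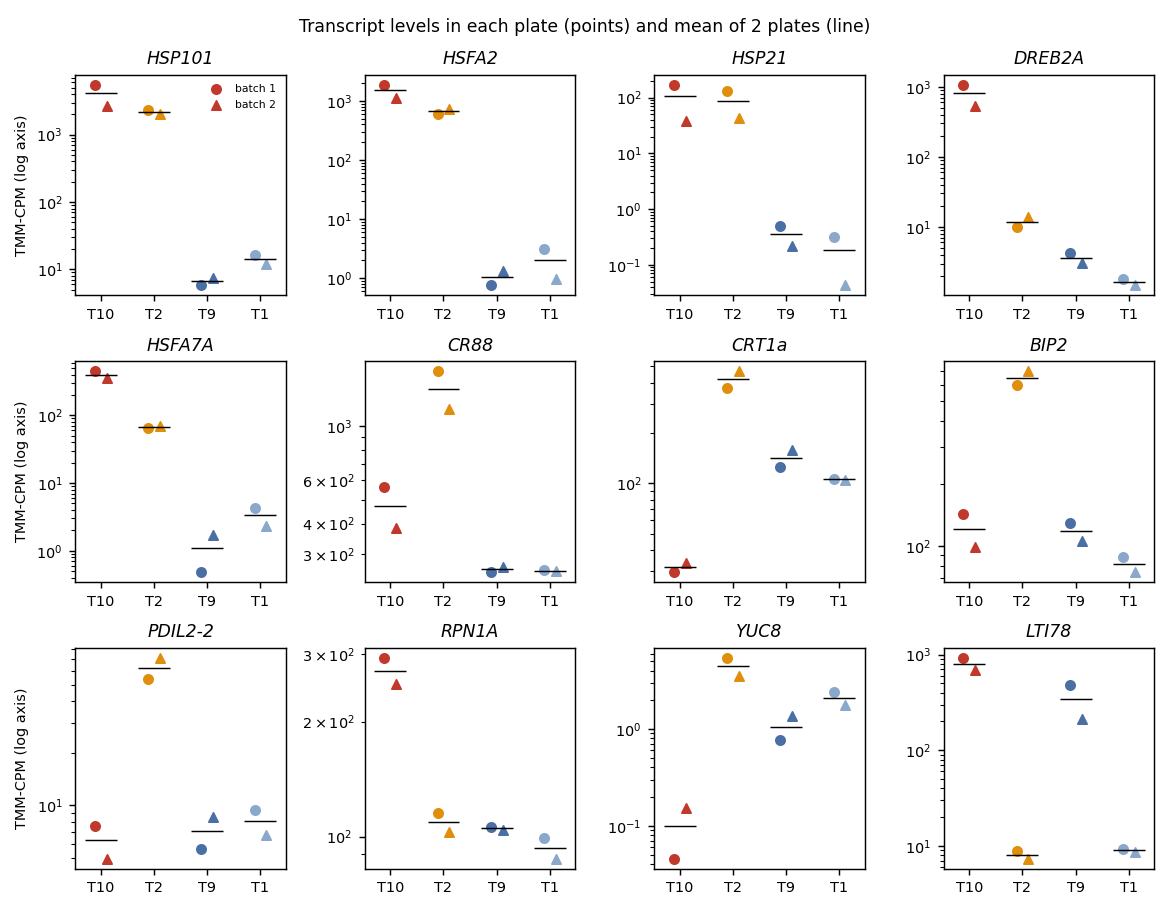
Level of 12 genes in TMM-CPM (log axes) at T10, T2, T9 and T1, with circles for batch 1, triangles for batch 2 and a line at the mean of 2 plates. HSP101 and HSFA2 are high at both heated time points, DREB2A at T10, CRT1a, BIP2 and PDIL2-2 at T2, and LTI78 at T10 and already at T9.

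In the jasmonic acid list, 4 of 20 tested members were higher at T10 and 1 lower, beside 9.35% and 9.66% of all loci. Between the unheated starts, 4 of the 20 were higher at T9 than at T1, beside 1.6% of all loci (7 with DESeq2 and 5 with limma on the authors' values). They were AOC2, OPR3, LOX3 and VSP2, and each did not pass there with any 1 of the 4 plates left out. At T10 against T9, 1 rose, beside 3.76% of all loci. The numbers for T10 against T2 were 5 and 2 with DESeq2 and 4 and 0 with no batch term. AOC2, an allene oxide cyclase, had 552 and 221 TMM-CPM at T10, against 28.6 and 35.8 TMM-CPM at T2, with 200.1 and 191 TMM-CPM at T9 and 31.9 and 37.7 TMM-CPM at T1, and a log2 change of 3.49 ± 0.50 (SE; adjusted p = 6.79e-04). The other 3 that were higher at T10 than at T2 were LOX2, AOS and OPR3, enzymes of the same pathway. Their log2 changes were 1.61, 1.61 and 0.79, and 1.34, 1.28 and 0.86 in T9 against T1. JAZ10, a repressor of jasmonate responses, was lower, with a log2 change of -1.61. AOC2 passed with each of the 4 plates left out in turn. LOX2 (log2 change 1.18 to 1.96) did not pass with 1 plate left out, unless it was the T10 batch 2 plate. AOS (log2 change 1.07 to 2.03) did not pass without the T10 batch 1 or T2 batch 1 plate. OPR3 (log2 change 0.64 to 0.95) did not pass with 1 plate left out, unless it was the T2 batch 1 plate. JAZ10 (log2 change -1.79 to -1.42) did not pass with any 1 of the 4 plates left out. The higher genes numbered 1 and 3 without a T10 plate (batch 1 and batch 2) and 2 and 2 without a T2 plate.

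Of the salicylic acid and defence list, 2 of 25 tested genes were higher at T10 and 0 lower in edgeR, shares below the 9.35% and 9.66% of all loci (0 and 0 with scaling by library size, 1 and 0 with no low-count filter, 4 and 0 with only the plates compared and 0 and 0 with no batch term). The 2 were SARD1 and PAD4, both regulators of salicylic acid, with log2 changes of 1.97 and 1.34. SARD1 (log2 change 1.54 to 2.47) and PAD4 (log2 change 1.07 to 1.57) did not pass with any 1 of the 4 plates left out. In the list of rapid touch, wound and cold genes, 1 of 17 was lower and 0 were higher in edgeR, below the 9.66% and 9.35% of all loci. The numbers higher and lower were 0 and 3 with scaling by library size, 0 and 2 with TMM without the chaperone lists, 0 and 2 with no low-count filter, 2 and 3 with DESeq2, 3 and 6 with only the plates compared and 2 and 0 with limma on the authors' values. RRTF1, the lower gene and a redox-responsive factor, had 1 count at T10 and 89 at T2. This is 87.5-fold lower at T10, with a 95% counting interval of 15.3 to 3496. RRTF1 (log2 change -8.34 to -5.14) did not pass without the T10 batch 1 or T2 batch 1 plate. Of 9 tested senescence genes, 1 was higher and 1 lower in edgeR, near the 9.35% and 9.66% of all loci. ACD1, the pheophorbide oxygenase of chlorophyll breakdown, was the higher one (log2 change 1.21) and NAC6, a senescence regulator, the lower one (-2.20). The numbers higher and lower were 0 and 1 with scaling by library size, 0 and 1 with only the plates compared, 1 and 0 with no batch term and 0 and 1 with limma on the authors' values. ACD1 (log2 change 0.81 to 1.54) did not pass with 1 plate left out, unless it was the T10 batch 2 plate. NAC6 (log2 change -3.15 to -1.42) did not pass with any 1 of the 4 plates left out.

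Of 39 tested nuclear photosynthesis genes, 0 passed in T10 against T2, T10 against T9 or T2 against T1, and their median in T10 against T2 was 0.36. Of all loci, 19.0%, 8.22% and 2.75% passed in these comparisons. At an unadjusted p under 0.05 in the edgeR fit, 0, 13 and 15 were higher in these comparisons, and 0, 9 and 7 with DESeq2. Their summed level was 257500 and 250600 TMM-CPM at T10, against 155900 and 243400 TMM-CPM at T2. The sums at the starts were 114700 and 125800 TMM-CPM at T9 and 74970 and 121300 TMM-CPM at T1. Though none passed, all 39 had a positive log2 change against the start in either exposure. The medians were 1.12 for T10 against T9 and 1.04 for T2 against T1. Of 282 tested ribosomal proteins, 5 were higher and 10 lower, shares below the 9.35% and 9.66% of all loci. Their median of 0.11 turned to -0.19 under scaling by library size. The ribosomal calls, higher and lower, numbered 2 and 25 with scaling by library size, 14 and 16 with DESeq2, 3 and 8 with only the plates compared, 2 and 1 with no batch term and 6 and 28 with limma on the authors' values. VAR2, an FtsH protease that repairs photosystem II, was the single higher member in edgeR (0 and 0 with scaling by library size, 2 and 0 with DESeq2, 0 and 0 with no batch term and 0 and 0 with limma on the authors' values, higher and lower) of 9 thylakoid proteases and light stress proteins, with 1909 and 1134 TMM-CPM at T10, against 739 and 632 TMM-CPM at T2 and a log2 change of 1.12 ± 0.35 (SE; adjusted p = 0.037). VAR2 (log2 change 0.90 to 1.31) did not pass with any 1 of the 4 plates left out, and 1 higher member of 9 is near the 9.35% of all loci. In the flavonoid list, 0 of 15 were higher in edgeR (6 at an unadjusted p under 0.05 and 3 with DESeq2) and 1 was lower. Both shares were below the 9.35% and 9.66% of all loci. The lower member was the flavonol regulator MYB111 (log2 change -2.89 ± 0.39 (SE, edgeR adjusted p = 4.37e-04)). With only the plates compared, 5 of 14 tested members were higher and 1 lower, so the share of higher members moved with the processing. In this list the 2 batches parted, with a median of 2.01 in batch 1 and -0.47 in batch 2. DFR, an anthocyanin enzyme chosen after its values were seen, showed this with 208 and 16.04 TMM-CPM at T10, against 17.8 and 20.2 TMM-CPM at T2.

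Markers of other tissues were low beside the leaf genes. The 10 root markers summed to 108 and 40.6 TMM-CPM at T10, against 95.9 and 93.3 TMM-CPM at T2. Of these 10, 2 were higher and 3 lower at T10, beside 9.35% and 9.66% of all loci. IRT1, the root iron transporter, had 47.2 and 5.89 TMM-CPM at T10, against 3.92 and 1.999 TMM-CPM at T2 (log2 change 2.92 ± 0.65 (SE; adjusted p = 0.007)), and NRT2:1, a nitrate transporter, had 106 counts at T10 and 0 at T2, a call that was lost with 1 plate left out, unless it was the T10 batch 2 plate. SCR, PHO1 and SHR were the lower ones, with log2 changes of -2.18, -1.73 and -1.25. IRT1 (log2 change 1.40 to 3.72) did not pass with 1 plate left out, unless it was the T10 batch 2 plate. PHO1 (log2 change -1.96 to -1.47) did not pass without the T10 batch 1 or T2 batch 1 plate. SCR (log2 change -2.73 to -1.72) did not pass with 1 plate left out, unless it was the T2 batch 2 plate. SHR (log2 change -1.55 to -0.88) did not pass with any 1 of the 4 plates left out. The 5 tested of 6 shoot apex markers summed to 6.93 and 8.20 TMM-CPM at T10, against 16.9 and 16.7 TMM-CPM at T2, with 1 listed marker at 0 and 0 passing in edgeR (2 lower at an unadjusted p under 0.05 and 1 with DESeq2). The 9 vascular markers summed to 374 and 191 TMM-CPM at T10, against 278 and 184 TMM-CPM at T2, with 0 passing in edgeR (2 at an unadjusted p under 0.05 and 0 with DESeq2), and the 7 guard cell markers to 15.4 and 31.9 TMM-CPM at T10, against 55.2 and 49.2 TMM-CPM at T2, with 1 lower, KAT1, a potassium channel (log2 change -1.95 ± 0.65 (SE; adjusted p = 0.04997)). KAT1 (log2 change -3.0 to -1.31) did not pass with 1 plate left out, unless it was the T10 batch 2 plate. This 1 lower marker of 7 stands beside 9.66% of all loci. The part of these tissues in the gene groups above was not tested.

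Beyond the lists, the genes with the largest changes were of several kinds. HMGB2, a chromatin protein, had 257 and 219 TMM-CPM at T10, against 9.62 and 9.04 TMM-CPM at T2, with 229 and 185 TMM-CPM at T9 and 73.2 and 57.1 TMM-CPM at T1. It was lower in both T2 plates than in any other plate of the 4 time points, and its log2 change was 4.66 ± 0.29 (SE; adjusted p = 1.91e-06). RbcX1, an assembly chaperone of Rubisco, had 53.4 and 68.8 TMM-CPM at T10, against 1.31 and 0.391 TMM-CPM at T2 (log2 change 6.32 ± 0.94 (SE; adjusted p = 7.88e-04)), and WCRKC1, a thioredoxin, 23.3 and 51.98 TMM-CPM at T10, against 0.680 and 0.869 TMM-CPM at T2 (log2 change 5.58 ± 1.04 (SE; adjusted p = 0.003)). CCL, a CCR-like protein, NUDT8, a nudix hydrolase, and PRR3, a clock regulator, had log2 changes of 4.97, 5.67 and 5.36. In T9 against T1 they changed by 3.55 and 4.36, which passed, and by 1.84, which did not. CCL passed in T9 against T1 with each of the 4 plates left out in turn. NUDT8 (log2 change 3.77 to 4.83) did not pass in T9 against T1 with 1 plate left out, unless it was the T9 batch 1 plate. RbcX1 changed by 2.57 there, without passing. LEA3, a late embryogenesis abundant protein, differed between the batches, with 359 and 5.64 TMM-CPM at T10, against 3.82 and 1.61 TMM-CPM at T2, and with 166 and 5.38 TMM-CPM at T9.

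Among the lowest at T10, TAS3, the precursor of small RNAs that target auxin response factors, had 1.09 and 0.154 TMM-CPM at T10, against 21.1 and 20.8 TMM-CPM at T2, a log2 change of -5.26 ± 0.83 (SE; adjusted p = 0.001). It also fell at T10 against T9, by 4.02 on the log2 scale (adjusted p = 0.011). TAS3 (log2 change -5.47 to -3.43) did not pass in T10 against T9 with any 1 of the 4 plates left out. COBL2, a COBRA-like cell wall protein, had 2.23 and 2.46 TMM-CPM at T10, against 25.7 and 25.9 TMM-CPM at T2, a log2 change of -3.46 ± 0.58 (SE; adjusted p = 0.002), with T9 at 1.31 and 2.22 TMM-CPM. Other genes of walls and growth in this group were EXO, XTR6, AGP10, GH9C1, ORS1 (an ORGAN SIZE-like gene) and GASA1, with log2 changes from -4.85 (EXO) to -3.63 (AGP10). In T9 against T1, where none of these passed, GH9C1 changed by -4.01, and TAS3 by -1.78. DIC2, a mitochondrial dicarboxylate carrier, and BBX16, a B-box protein, changed by -4.48 and -3.50. HMGB2, RbcX1, WCRKC1, CCL, NUDT8, TAS3, COBL2 and AGP10 passed with each of the 4 plates left out in turn. PRR3 (log2 change 4.64 to 6.28) did not pass without the T2 batch 1 plate. LEA3 (log2 change 2.01 to 6.37) did not pass with 1 plate left out, unless it was the T10 batch 2 plate. EXO (log2 change -5.11 to -4.60) and XTR6 (log2 change -4.17 to -3.83) did not pass with any 1 of the 4 plates left out. GH9C1 (log2 change -5.38 to -2.29) and GASA1 (log2 change -4.36 to -3.58) did not pass with 1 plate left out, unless it was the T2 batch 2 plate. ORS1 (log2 change -6.33 to -3.35) did not pass without the T10 batch 2 or T2 batch 1 plate. DIC2 (log2 change -4.96 to -3.90) did not pass without the T10 batch 1 plate. BBX16 (log2 change -4.12 to -2.59) did not pass without the T10 batch 1 or T2 batch 1 plate.

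The responses to the 2 exposures were then compared without shared plates, since T10 against T9 and T2 against T1 use different ones. There were 152 loci that rose in both. They were 19.3% of the 789 that rose at T10, beside the 2.01% of all loci that rose at T2. They were 36.1% of the 421 that rose at T2, beside the 3.76% of all loci that rose at T10. The 9 loci that fell in both were 5.77% of the 156 that fell at T2, near the 4.46% of all loci that fell at T10. Across the 20980 loci, which are not independent replicates, the 2 changes, taken from 1 fit, had a Pearson r of 0.302. The difference of the 2 responses passed for 206 loci (0.982%), of which 77 responded more positively at T10 (0.367%) and 129 more negatively (0.615%), and 24 and 113 with scaling by library size. The 206 were 1225 with DESeq2, 33 without the batch term and 5 with a fit to the plates of the 4 time points alone. Of the 129, 64 fell at T10 without passing at T2, 49 rose at T2 without passing at T10, and 10 did both. With 1 plate left out, the 206 became 18 and 39 (T10 batch 1 and batch 2), 18 and 23 (T2), 23 and 46 (T9), and 13 and 32 (T1).

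The 10 loci that rose at T2 and fell at T10 included CRT1a, ATERDJ3B and PDIL1-2, described above, and CRLK1, a receptor-like kinase of cold signalling, with 3.05 and 3.18 TMM-CPM at T10, against 13.5 and 13.04 TMM-CPM at T2 and a difference of responses of -2.31 ± 0.34 (SE; adjusted p = 0.011). In the opposite direction there were 3, among them KNAT5, a homeobox gene, with 36.1 and 34.4 TMM-CPM at T10, against 12.7 and 14.4 TMM-CPM at T2, and RVE2, a MYB-related factor, with 109.7 and 14.97 TMM-CPM at T10, against 14.3 and 11.04 TMM-CPM at T2, and 10.9 and 3.92 TMM-CPM at T9 and 314 and 92.2 TMM-CPM at T1. CRLK1 (log2 change 0.83 to 1.08), KNAT5 (-0.99 to -0.73) and RVE2 (-4.26 to -3.29) did not pass in T2 against T1 with any 1 of the 4 plates left out. KNAT5 (log2 change 0.63 to 0.85) did not pass in T10 against T9 with any 1 left out. CRLK1 (-1.43 to -1.28) and RVE2 (1.72 to 3.51) passed there only without the T10 batch 2 plate. T10 against T9 spans 90 min later in the light period and T2 against T1 spans 3 h from lights on, so the hour of the day differs within these responses too. CYP707A4, which degrades abscisic acid, had 3.65 and 1.90 TMM-CPM at T10, against 29.3 and 18.99 TMM-CPM at T2, and its difference of responses was -6.62 ± 1.18 (SE; adjusted p = 0.023). HMGB2 passed in the difference of responses with each of the 8 plates left out in turn. CRLK1 (log2 difference -2.43 to -2.19) did not pass in the difference of responses without the T10 batch 1, T2 batch 1, T1 batch 1 or T1 batch 2 plate. KNAT5 (log2 difference 1.47 to 1.74) did not pass in the difference of responses with 1 plate left out, unless it was the T10 batch 2 plate. RVE2 (log2 difference 5.48 to 7.27) did not pass in the difference of responses with 1 plate left out, unless it was the T10 batch 2 or T1 batch 2 plate. CYP707A4 (log2 difference -7.12 to -5.99) did not pass in the difference of responses with 1 plate left out, unless it was the T9 batch 2 plate.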

How the data were processed

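Poly(A) RNA of leaves was sequenced from 43 libraries, and each plate of about 80 seedlings gave 2 tubes, apart from 1 plate with a single tube. Count tables were deposited by the authors as whole-number counts per locus for 33602 loci, with 5 summary lines that name no gene and were left out of totals and tests. The submitters' processing notes name the TAIR10 build, the aligners TopHat2 2.0.14 and Bowtie2 2.1.0.0, bcl2fastq 1.8.4, HTSeq and SAMtools. The kit marks strand, per the labels' protocols, but no source used here says how strand was treated in counting, so overlapping and antisense loci, and near-identical copies, are uncertain. The authors also deposited log2 CPM for 18864 loci. The normalization of that table is not named in any source used here, the table served as an alternative, and its 1 column that matched no sample was not used.

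Tubes were summed by plate, which left 22 plates. Locus IDs were matched to RefSeq on TAIR10.1 for 32835 loci, and 250 bases before the gene start were read for 32834. Plastid and mitochondrial loci and unmatched loci were given no window. The promoter shares thus cover 20809 of the 20980 tested loci. They cover 1855 of the 1961 higher and 2025 of the 2027 lower at T10 than at T2, and 715 of the 789 that rose against T9. All 22 plates entered 1 edgeR 4.0.16 quasi-likelihood fit (R 4.3.3) with a coefficient for each time point, batch as a covariate, TMM scaling and filterByExpr with a smallest count of 10. This left 20980 loci, a residual df of 10 and a biological coefficient of variation, common to all loci, of 0.308. The contrasts were T10 against T2, T10 against T9, T2 against T1, T9 against T1 and the difference of the responses, (T10 - T9) - (T2 - T1). Passing means a two-sided Benjamini-Hochberg adjusted p under 0.05 over all tested loci of a contrast, the SE is the log2 change over the square root of F, and intervals are 95%. Where a group held 0 counts, the bound used 3 counts over the group, and such bounds and counting intervals cover counting error only.

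Batch numbers pair the plates, because the labels give the batch of each plate, and batch is a term of the fit. Alternatives were scaling by library size, RLE or TMM without the chaperone lists, no low-count filter, DESeq2 1.42.0, only the plates compared, no replicate block, limma 3.58.1 on the authors' log2 values, each plate left out, and each batch alone. The members (the plates of T10 and T2) and the gene lists were chosen with earlier results of these data known. Genes were named by rule: the 12 that rose and the 12 that fell most in T10 against T2 with a symbol, at least 10 TMM-CPM and the same sign in both batches; the heat genes APX2, HSFA2, HSP18.2, HSP21, HSP101 and MBF1C; up to 5 members of each list by smallest p; the 6 highest and 6 lowest differences of responses; and up to 6 genes per direction with opposite responses. Other genes given were chosen after their values were seen. Proteasome and ribosomal lists were drawn by product name. Symbols are those of RefSeq.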

Additional observations from a re-analysis of the deposited data

Results flagged for a closer look

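The responses to the sudden and the gradual exposure differed for 206 loci by the test of the difference itself, (T10 - T9) - (T2 - T1), in the edgeR fit. The values are log2 differences of responses, positive where the change at T10 against T9 was the more positive one. Among heat and folding genes the difference was 4.93 for DREB2A, 4.22 for HSFA7A, -4.13 for CRT1a, -3.47 for ATERDJ3B and -2.55 for PDIL1-2. Among regulators it was 6.56 for RVE2, 3.37 for BT1, a BTB and TAZ domain protein, 2.99 for HMGB2, 1.60 for KNAT5 and -3.77 for GI.

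The difference was 4.24 for GSTU1, a glutathione S-transferase with 13.99 and 15.5 TMM-CPM at T10, 2.04 and 2.30 TMM-CPM at T2, 9.16 and 13.5 TMM-CPM at T9 and 38.97 and 22.1 TMM-CPM at T1, where the T2 plates were the lowest. It was -6.62 for CYP707A4, -3.63 for SAUR20 and -2.31 for CRLK1. PR1, a defence marker, had a difference of -6.97, but 1 plate stood apart, with 1.95 and 38.6 TMM-CPM at T9. CRT1a, ATERDJ3B and HMGB2 passed in the difference of responses with each of the 8 plates left out in turn. DREB2A (log2 difference 4.29 to 5.41), HSFA7A (log2 difference 3.56 to 5.31), GI (log2 difference -4.04 to -3.45) and PR1 (log2 difference -7.52 to -3.09) did not pass in the difference of responses with any 1 of the 8 plates left out. PDIL1-2 (log2 difference -2.79 to -2.33) and CYP707A4 (log2 difference -7.12 to -5.99) did not pass in the difference of responses with 1 plate left out, unless it was the T9 batch 2 plate. RVE2 (log2 difference 5.48 to 7.27) did not pass in the difference of responses with 1 plate left out, unless it was the T10 batch 2 or T1 batch 2 plate. BT1 (log2 difference 2.40 to 3.97) and KNAT5 (log2 difference 1.47 to 1.74) did not pass in the difference of responses with 1 plate left out, unless it was the T10 batch 2 plate. GSTU1 (log2 difference 3.60 to 4.73) did not pass in the difference of responses with 1 plate left out, unless it was the T1 batch 2 plate. SAUR20 (log2 difference -4.35 to -2.90) did not pass in the difference of responses with 1 plate left out, unless it was the T10 batch 2 or T9 batch 2 plate. CRLK1 (log2 difference -2.43 to -2.19) did not pass in the difference of responses without the T10 batch 1, T2 batch 1, T1 batch 1 or T1 batch 2 plate.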

How the results depend on the processing

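Few plates are the main limit, with 2 at each time point, and the count tables carry batch as the only label of shared handling. The cause of the moves below was not tested, except that leaving plates out also leaves fewer samples. T10 against T2 gave 3513 loci with scaling by library size, 3970 with RLE, 3994 with TMM without the chaperone lists, 3557 with no low-count filter, 5213 with DESeq2, 3168 with only the plates compared and 3751 with limma on the authors' values, against 3988.

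Without the replicate block, the passing loci numbered 2312 for T10 against T2, 600 for T10 against T9, 339 for T2 against T1, 167 for T9 against T1 and 33 for the difference. With scaling by library size they numbered 4496 for T10 against T9, 886 for T2 against T1 and 137 for the difference, with the median of all loci moved to -0.69, -0.49 and -0.21. With DESeq2 they numbered 3431, 1171, 897 and 1225 for T10 against T9, T2 against T1, T9 against T1 and the difference. With only the plates compared they numbered 593, 2257, 0 and 5 in the same order; for T9 against T1, edgeR then gave 2981 loci at an unadjusted p under 0.05. With 1 plate left out the counts ranged from 1120 to 2416 for T10 against T2, 75 to 751 for T10 against T9, 83 to 257 for T2 against T1, 71 to 172 for T9 against T1 and 13 to 46 for the difference.

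Of the 157 named genes, the direction and the side of the threshold in T10 against T2 were kept by 156 with RLE, 136 with scaling by library size, 135 of 152 with the authors' values, 129 without the block, and 103 to 125 with 1 plate left out. With only the plates compared, 119 of 154 named genes kept both, while 19 gained and 16 lost the call. Genes that changed sign did not pass in T10 against T2. HSP21 (0.18) was at -0.20 with scaling by library size, -0.30 with the authors' values, -0.20 within batch 2 and from -0.73 to 0.76 with 1 plate left out. MBF1C (0.50) was at -0.078 within batch 2 and from -0.11 to 0.95 with 1 plate left out. STM (-0.07) was at 0.10 with the authors' values, 0.50 within batch 1 and from -0.49 to 0.30. CUC3 (0.01) was at -0.27 with scaling by library size, -0.015 without the block, -0.19 within batch 1 and from -0.45 to 0.40. PR1 (0.32) was at -0.19 without the block, -0.36 within batch 2 and from -0.16 to 4.17. Within batch 2, FTSH8 was at -0.21, ELIP1 at -0.31, UF3GT at -0.047, FMA at 0.25, GORK at 0.18 and HT1 at 0.31. The list of reactive oxygen enzymes had a median of 0.30 that turned to -0.12 with scaling by library size, and the vascular markers 0.04 and -0.31.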
